A study of Mus musculus with 14 samples.

Results

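miR-218, miR-367, miR-122, miR-141, miR-200a, miR-200b, miR-200c, miR-429 and miR-205 are miRNAs that bulk tissue profiles use as marks of motor neurons, embryonic stem cells, liver and epithelium. Every arm and copy of these 9 miRNAs with a row in the mouse dorsal root ganglion data was taken, which gave 12 of 1123 mature miRNAs. They were selected by name because earlier results had shown several of them high in C57BL/6 naive libraries, so their levels in that group are given as a description with no test. Of the 12, 11 had reads in all 14 libraries. miR-200a-5p had reads in 6.

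The 14 small RNA libraries came from dissociated dorsal root ganglia (DRG), which hold the cell bodies of sensory neurons, of 2 inbred mouse strains. There were 3 CAST/Ei injured, 3 CAST/Ei naive, 3 C57BL/6 injured and 5 C57BL/6 naive libraries. Injured mice were males of 8 to 10 weeks with a crush of the left sciatic nerve lasting 30 s, and naive mice had no treatment. The sources used here do not give the age and sex of the naive mice, the time after the crush, the ganglia taken or any pooling of mice. The series' design text calls libraries of a group biological replicates, and p-values measure only the spread between them.

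miR-218 lies in introns of the axon guidance genes Slit2 and Slit3 and is known in motor neurons of the spinal cord, where motor neuron transcription factors switch it on. miR-367 is cut from the same primary transcript as the miR-302 miRNAs, which mark pluripotent stem cells. miR-122 is the dominant miRNA of hepatocytes. miR-141, miR-200a, miR-200b, miR-200c and miR-429 form one family that holds epithelial identity by repressing Zeb1 and Zeb2, and miR-205, abundant in skin and other layered epithelia, shares that role. A DRG holds no motor neuron cell bodies, no liver tissue and no lining epithelium, and in bulk libraries fewer cells of a type and less RNA per cell cannot be told apart.

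A mature sequence was found in RefSeq (GRCm38.p6) for 11 of the 12 members. miR-122-5p is named only. Those below are shown because the results turn on which arm, copy or seed carries the reads, and capitals mark the seed (bases 2 to 8).
miR-218-5p: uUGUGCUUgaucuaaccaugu
miR-218-1-3p: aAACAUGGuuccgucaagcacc
miR-218-2-3p: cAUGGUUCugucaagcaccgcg
miR-367-3p: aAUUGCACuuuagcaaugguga
miR-141-3p: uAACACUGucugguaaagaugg
miR-200a-3p: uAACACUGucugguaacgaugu
miR-200b-3p: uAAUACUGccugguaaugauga
miR-200c-3p: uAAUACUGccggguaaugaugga
miR-429-3p: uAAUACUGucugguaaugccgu
miR-205-5p: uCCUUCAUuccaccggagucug

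The 5p arm of miR-218 is the same from both of its loci, Mir218-1 at chr5:48223966-48223986 in a Slit2 intron and Mir218-2 at chr11:35616840-35616860 in a Slit3 intron, both on the plus strand. Only the 3p arms can tell the loci apart. Compared position by position from the first base they differ at 15 of 22, but shifted against each other they are nearly the same. The authors' counting could therefore have split some 3p reads between the loci. The epithelial family falls into 2 seeds, AACACUG in miR-141-3p and miR-200a-3p and AAUACUG in miR-200b-3p, miR-200c-3p and miR-429-3p. It also falls into 2 loci on the minus strand. miR-200b (chr4:156055685-156055706), miR-200a (chr4:156054911-156054932) and miR-429 (chr4:156053916-156053937) lie together in a Ttll10 intron, and miR-141 (chr6:124717917-124717938) lies beside miR-200c (chr6:124718324-124718346). miR-141-3p and miR-200a-3p, on different chromosomes, differ at 2 of 22 positions, so some reads could have been split between them by the authors' counting. miR-200b-3p and miR-200c-3p, also on different chromosomes, are nearly the same in sequence, so the same could hold for their reads. miR-367 is at chr3:127545779-127545800 on the plus strand, and its seed AUUGCAC is that of miR-25-3p, miR-32-5p, miR-92a-3p, miR-92b-3p and miR-363-3p. miR-205 is at chr1:193507503-193507524 on the minus strand.

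Levels are the deposited CPM (counts scaled by an adjusted library size), from libraries of 4007706 to 15642360 recovered reads. The labelled tissue was checked against 9 arms abundant in sensory neurons (miR-138, miR-182, miR-183 and miR-96), which summed to 136703 and 149883 CPM in C57BL/6 naive 4 and 5 and to between 80816 and 118475 CPM in the other 12 libraries. Of the 9 arms, 2 were above all the other 12 in both and 1 was below them. Most of the sum was miR-138-5p, at 104665 and 113664 CPM in C57BL/6 naive 4 and 5. These 2 libraries stand apart from the rest. Their rank correlation with the other 12 over all 1123 miRNAs was 0.880 to 0.934, and among those 12 it was 0.907 to 0.973. No 2 libraries held identical values. Mean differences that involve C57BL/6 naive are therefore given with and without them.

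The members together took 23.7% of the reads of C57BL/6 naive 4 and 8.83% of those of C57BL/6 naive 5. In the other 12 libraries they took between 0.414% and 1.95%, with a median of 0.618%. Nearly all of this is miR-218-5p with miR-367-3p. miR-218-5p alone made up 19.9% and 7.49% of the reads in C57BL/6 naive 4 and 5, against 0.358% to 1.65% elsewhere. miR-367-3p made up 3.67% and 1.27%, against 0.0312% to 0.280% elsewhere.

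miR-218-5p stood at 4870, 4807 and 6639 CPM in the CAST/Ei injured libraries and at 17984, 3479 and 11409 CPM in the CAST/Ei naive ones. It stood at 16420, 4085 and 4911 CPM in C57BL/6 injured and at 5001, 5846, 3986, 260520 and 81351 CPM in C57BL/6 naive libraries 1 to 5. The 4 groups overlapped: the lowest library of each lay between 3479 and 4807 CPM, and the highest of CAST/Ei injured was at 6639 CPM, where each other group had a library at 16420 CPM or above. In C57BL/6 naive this held only through libraries 4 and 5, without which its highest was at 5846 CPM.

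miR-367-3p stood at 505.8, 608.9 and 1018 CPM in CAST/Ei injured and at 2993, 398.4 and 1365 CPM in CAST/Ei naive. It stood at 2780, 294.2 and 546.6 CPM in C57BL/6 injured and at 319.9, 466.4, 316.5, 48100 and 13814 CPM in C57BL/6 naive. The libraries high in miR-218-5p were again the high ones.

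miR-122-5p stood at 15.3, 14.3 and 18.3 CPM in CAST/Ei injured and at 39.8, 11.7 and 27.2 CPM in CAST/Ei naive. It stood at 37.7, 12.7 and 11.6 CPM in C57BL/6 injured and at 8.63, 13.4, 15.7, 660.6 and 368.9 CPM in C57BL/6 naive. Outside C57BL/6 naive 4 and 5 this liver miRNA was thus at 39.8 CPM or less, with 62 to 550 reads per library.

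miR-141-3p stood at 6.94, 9.32 and 10.1 CPM in CAST/Ei injured and at 20.4, 4.003 and 11.7 CPM in CAST/Ei naive. It stood at 18.8, 4.62 and 4.73 CPM in C57BL/6 injured and at 2.06, 6.32, 4.05, 436.6 and 83.5 CPM in C57BL/6 naive. Here the count was small in several libraries, down to 15 reads in C57BL/6 naive 1.

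**Figure D1:**
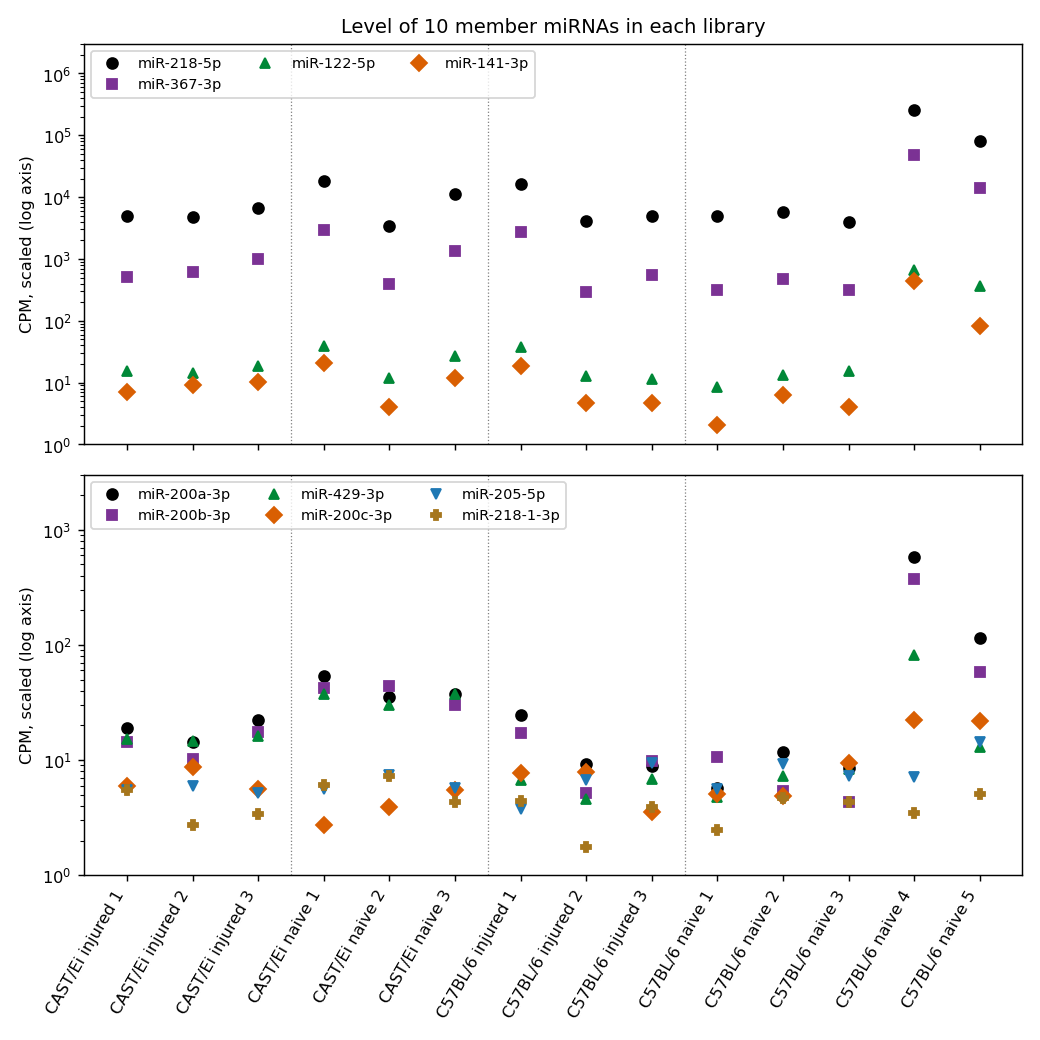
Level in CPM (log axis) of 10 members in each of the 14 libraries, 1 symbol per library, with dotted lines between the 4 groups. The upper panel shows the 4 members highest in the same 6 libraries in the same order, with miR-218-5p at 260520 and 81351 CPM in C57BL/6 naive 4 and 5, and the lower panel the remaining 6, of which miR-200a-3p, miR-200b-3p and miR-429-3p are also at 29.8 to 53.6 CPM in CAST/Ei naive.

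Against the median of the other 12 libraries, the excess in C57BL/6 naive 4 and 5 was uneven across the members. It was 91.4-fold and 26.3-fold for miR-367-3p, 52.6-fold and 16.4-fold for miR-218-5p, 44.7-fold and 24.97-fold for miR-122-5p, and 65.9-fold and 12.6-fold for miR-141-3p. The chromosome 4 epithelial miRNAs followed with 34.7-fold and 6.90-fold for miR-200a-3p and 29.9-fold and 4.66-fold for miR-200b-3p. Their cluster partner miR-429-3p had 82.0 CPM in C57BL/6 naive 4, or 7.09-fold. In C57BL/6 naive 5 it had 13.0 CPM, or 1.12-fold, which is inside the range of the other 12. The rule named the miRNAs and set no limit on their level, so no member lies just inside or outside a threshold.

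The remaining members had lower folds in C57BL/6 naive 4 than these. miR-200c-3p, the chromosome 6 partner of miR-141-3p, had 22.2 and 22.0 CPM in C57BL/6 naive 4 and 5, against 2.75 to 9.37 CPM in the other 12, so it was above all of them in both. miR-205-5p had 7.12 and 14.5 CPM, against 3.78 to 9.38 CPM, and was above that range in C57BL/6 naive 5 alone. miR-218-1-3p had 3.45 and 5.08 CPM, against 1.75 to 7.23 CPM. miR-218-2-3p had 0.919 and 0.564 CPM, against 0.616 to 2.92 CPM. The 3p arms of miR-218 were thus within or below the range of the other libraries where the 5p arm stood far above it.

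Of the 587 miRNAs with a mean of at least 5 CPM, 9 are members. C57BL/6 naive 4 and 5 were the 2 highest libraries for 7 of these 9, which is so for 16.2% of the 587. Both were at least 2-fold over the highest other library for 6 of the 9, which is so for 3.58%. Both were at least 4-fold over it for 3, namely miR-218-5p, miR-367-3p and miR-122-5p, which is so for 0.681%. The members were selected on these libraries, so nothing is read from those shares.

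**Figure D2:**
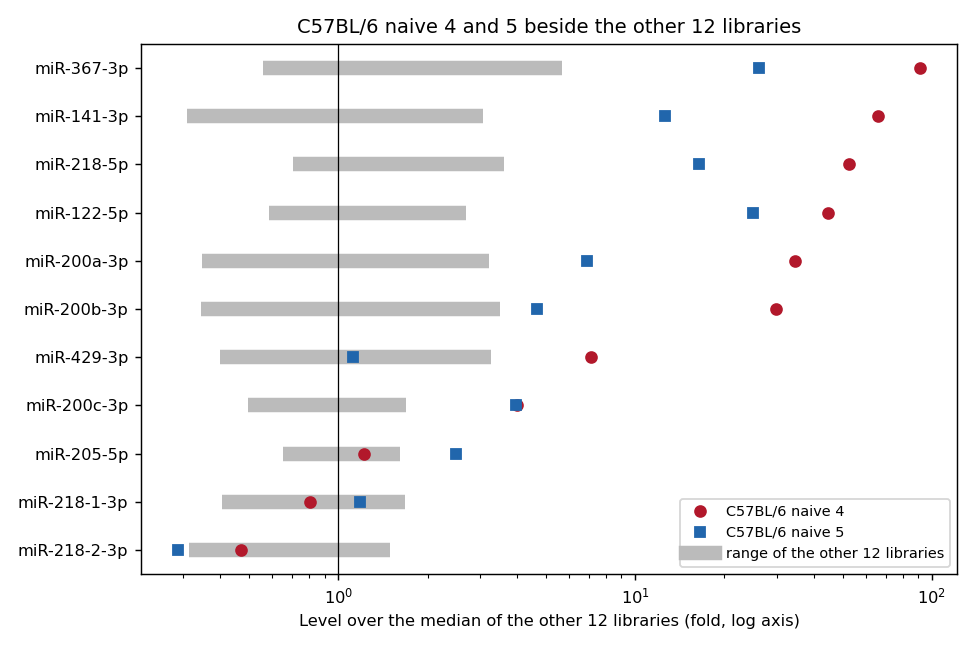
Level of 11 members in C57BL/6 naive 4 (circles) and C57BL/6 naive 5 (squares), each divided by the median of the other 12 libraries (log axis), with the range of those 12 as a grey bar. miR-367-3p is at 91.4-fold and 26.3-fold, while the 3p arms of miR-218 lie inside or below the grey bars; miR-200a-5p, with 0 reads in both libraries, is left out.

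C57BL/6 naive 4 and 5 did not carry the members in one ratio to each other. miR-218-5p was 3.20 times as high in C57BL/6 naive 4 as in C57BL/6 naive 5 (95% counting interval 3.19 to 3.21), and miR-367-3p 3.48 times (3.45 to 3.51). Of the epithelial miRNAs, 4 had higher ratios, 5.23 (4.74 to 5.78) for miR-141-3p, 5.03 (4.62 to 5.48) for miR-200a-3p, 6.41 (5.70 to 7.22) for miR-200b-3p and 6.32 (4.93 to 8.21) for miR-429-3p. miR-122-5p had a lower one, 1.79 (1.70 to 1.89). The other epithelial miRNAs had lower ones still, 1.01 (0.796 to 1.28) for miR-200c-3p and 0.492 (0.346 to 0.696) for miR-205-5p. These intervals cover counting error only, since the libraries carry no molecular identifiers. They compare 2 libraries that chose the members, and are a description of these libraries.

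Below these 2 libraries the excess continued in the same order of libraries. For miR-218-5p the next were CAST/Ei naive 1, then C57BL/6 injured 1, then CAST/Ei naive 3 and last CAST/Ei injured 3. The same 6 libraries stood highest in the same order for miR-367-3p, miR-122-5p and miR-141-3p. Of the 587 miRNAs with a mean of at least 5 CPM, 6 had this order (1.02%), 4 of them members. The other 2 were miR-494-5p, which comes from the Dlk1-Dio3 domain of chromosome 12, and miR-155-3p, the less abundant arm of the leukocyte miRNA miR-155. miR-218-5p set the order and is itself counted among the 6. The members were selected on C57BL/6 naive libraries, so nothing is read from this share.

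In the 4 middle libraries, these 4 members, taken because they shared that order, were above the rest in similar proportions to C57BL/6 naive 4. To see this, the median of the 8 lower libraries was subtracted (4838 CPM for miR-218-5p, 432.4 for miR-367-3p, 13.1 for miR-122-5p and 4.68 for miR-141-3p), a step chosen after the values were seen. In CAST/Ei naive 1 the remainder was 5.14% of that in C57BL/6 naive 4 for miR-218-5p, 5.37% for miR-367-3p, 4.13% for miR-122-5p and 3.65% for miR-141-3p. In C57BL/6 injured 1 it was 4.53%, 4.92%, 3.81% and 3.27% for the same 4 miRNAs. The 4 shares thus ran from 3.65% to 5.37% in CAST/Ei naive 1 and from 3.27% to 4.92% in C57BL/6 injured 1. Other members were not compared in this way, and they did not all follow. In CAST/Ei naive 1, miR-200a-3p ranked 3 of 14 libraries at 53.6 CPM and miR-200c-3p ranked 14 at 2.75 CPM.

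CAST/Ei naive 3 had 2.57% of the C57BL/6 naive 4 remainder for miR-218-5p, 1.96% for miR-367-3p, 2.18% for miR-122-5p and 1.62% for miR-141-3p. CAST/Ei injured 3 had 0.704%, 1.23%, 0.804% and 1.26% for the same 4. For miR-141-3p this last remainder is within the spread of the low libraries: the level was 10.1 CPM in CAST/Ei injured 3 and 2.06 to 9.32 CPM in the 8 lower ones. C57BL/6 naive 5 kept no such proportion, with 29.9% for miR-218-5p, 28.1% for miR-367-3p, 54.9% for miR-122-5p and 18.3% for miR-141-3p. miR-494-5p and miR-155-3p had 4.46% and 4.68% in CAST/Ei naive 1 and 4.03% and 4.42% in C57BL/6 injured 1, but 42.1% and 10.0% in C57BL/6 naive 5. What placed these 6 libraries in one order was not tested.

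The proportion of miR-218-5p to miR-367-3p moved with the level. There were 5.42 and 5.89 reads of miR-218-5p for each read of miR-367-3p in C57BL/6 naive 4 and 5, and 6.01 and 8.36 in CAST/Ei naive 1 and 3, 5.91 in C57BL/6 injured 1 and 6.52 in CAST/Ei injured 3. The 8 lower libraries had between 7.89 and 15.6. Of these 8, C57BL/6 naive 1, 2 and 3 and C57BL/6 injured 2 were the highest, at 12.5 or above. Most libraries low in both miRNAs therefore carried relatively less miR-367-3p, with CAST/Ei naive 3 inside their range.

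**Figure D3:**
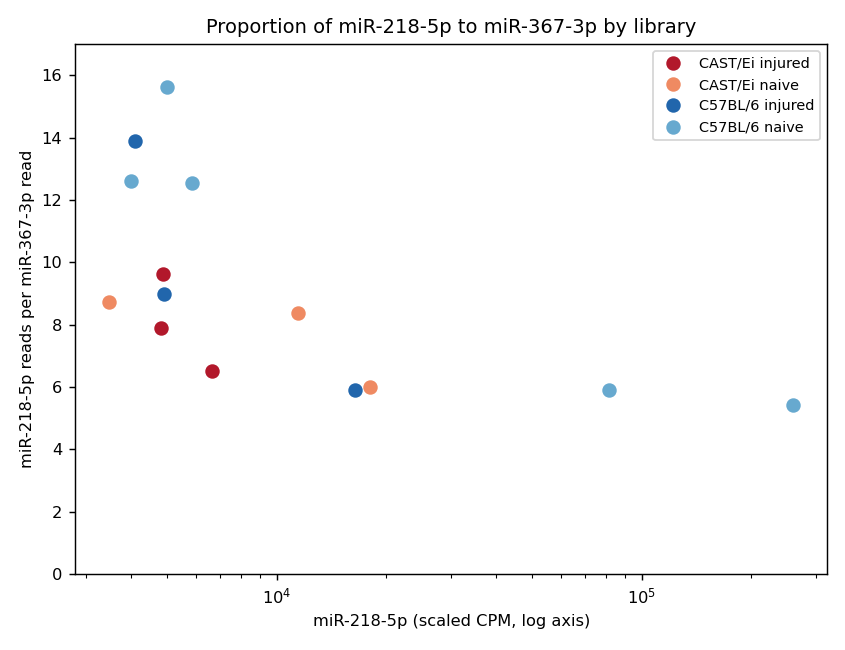
Reads of miR-218-5p per read of miR-367-3p against the level of miR-218-5p in CPM (log axis), 1 point per library, coloured by group. The 4 libraries at or above 16420 CPM lie between 5.42 and 6.01, and the 9 at or below 6639 CPM spread from 6.52 to 15.6.

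The arms of miR-218 were counted in very unequal numbers. In C57BL/6 naive 4 there were 2268292 reads of miR-218-5p and 38 reads of both 3p arms together, which is 59692 to 1. In C57BL/6 naive 5 there were 432449 reads and 30 reads, or 14415 to 1. In the other 12 libraries the ratio ran from 372 to 2660, with 23 to 98 reads of the 3p arms. The excess of miR-218-5p therefore came without an excess of either 3p arm, and the reads do not tell which of the Slit2 and Slit3 loci it belongs to. How far any step from RNA to counting treats the arms unequally was not tested.

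miR-200a showed the same split between its arms. C57BL/6 naive 4 had 5014 reads of miR-200a-3p and 0 of miR-200a-5p, and C57BL/6 naive 5 had 609 and 0. Counts of 0 allow up to 0.345 and 0.564 CPM of miR-200a-5p there, taking 3 reads as the limit. The highest count of miR-200a-5p in any library was 7 reads, in CAST/Ei naive 1, beside 740 reads of miR-200a-3p.

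miR-367-3p was high where the miR-302 miRNAs of its own primary transcript were near 0. Their 3 measured arms, miR-302a-3p, miR-302b-3p and miR-302d-3p, summed to 2.64 and 2.82 CPM in C57BL/6 naive 4 and 5, beside 48100 and 13814 CPM of miR-367-3p, and to 0 to 2.49 CPM in the other 12. The sum was thus near 0 in both libraries, though above all others. With 1 read at 0.115 CPM in C57BL/6 naive 4 and 0.188 CPM in C57BL/6 naive 5, the order of such small sums is uncertain. miR-302c and the stem cell cluster miR-290 to miR-295 had no row in the data, so their levels are not known here. Of the arms with the seed of miR-367-3p (miR-25, miR-32, miR-92a, miR-92b and miR-363), the 10 measured summed to 1959 and 3028 CPM in C57BL/6 naive 4 and 5 and to 1030 to 2014 CPM in the other 12. This list went both ways: 1 of the 10 was above all the other 12 in both and 1 was below them. The one above was miR-92b-3p, at 1028 and 1854 CPM, against 202.7 to 926.4 CPM.

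Markers of the tissues named for the other members were at these levels beside them. The 12 arms abundant in brain and spinal cord (miR-9, miR-124, miR-128, miR-137 and miR-219a) summed to 33605 and 32900 CPM in C57BL/6 naive 4 and 5, inside the 25472 to 47647 CPM of the other 12. None of the 12 was above, or below, all the other libraries in both. Single arms left the range in 1 of the 2 libraries. Among them, miR-9-3p was at 900.0 CPM in C57BL/6 naive 4, against 1936 to 4737 CPM in the other 12. miR-137-3p was at 11734 CPM in C57BL/6 naive 5, against 4128 to 8521 CPM. The 6 arms of miR-192, miR-194 and miR-802, which liver shares with gut and kidney, summed to 898.8 and 513.7 CPM, against 317.7 to 560.7 CPM. miR-192-5p itself was at 592.4 and 341.4 CPM, against 145.5 to 364.1 CPM. miR-194-5p was likewise above all the other 12 in C57BL/6 naive 4 alone. miR-802-5p and miR-192-3p, at 2.26 CPM or less in both libraries, were inside the range of the other 12. Of the 6 arms, none was above, or below, all the other 12 in both. The sum of this list was thus above all others in C57BL/6 naive 4 and not in C57BL/6 naive 5.

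For epithelia, the 7 arms, miR-205-5p among them, summed to 1496 and 305.7 CPM in C57BL/6 naive 4 and 5, against 34.0 to 163.1 CPM in the other 12. The skin list (miR-203 and miR-205, 3 arms) did not follow, with 103.9 and 156.1 CPM against 157.8 to 269.7 CPM. miR-375-3p of endocrine cells and gut was at 2.07 and 0.941 CPM, against 0 to 8.01 CPM. The epithelial sum thus stood above the other 12 in both libraries and the skin sum below them, although miR-205-5p, counted in both lists, was at its highest in C57BL/6 naive 5.

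Lists of other cell types of the ganglion and its surroundings stood both inside and outside the range of the other 12. The 5 arms of myelinating glia (miR-338 and miR-219a) summed to 8629 and 8046 CPM in C57BL/6 naive 4 and 5, below the 18225 to 45397 CPM of the other 12. Only 1 of the 5, miR-338-3p, was itself below all other libraries in both, at 6735 and 7116 CPM against 15061 to 42996 CPM. This arm made up most of the sum. The 5 red blood cell arms summed to 7652 and 7369 CPM, against 7680 to 26474 CPM, but the list went both ways: 2 of the 5, miR-486-5p and miR-486-3p, were above all other libraries in both, and 2 were below them. The muscle list, 6 arms, was at 5336 CPM in C57BL/6 naive 4 and 16097 CPM in C57BL/6 naive 5, which is below and above the 6365 to 14006 CPM of the others. Fibroblast arms summed to 4860 and 8053 CPM, against 3271 to 5054 CPM, and only the sum of C57BL/6 naive 5 exceeded this. Of these 6 arms, however, 3 were above all other libraries in both. Leukocyte arms summed to 6940 and 5796 CPM, inside the 2768 to 7335 CPM of the others, but this list also went both ways. Of its 8 arms, 3 were above all other libraries in both and 1 was below them. miR-150-5p was at 2713 and 2382 CPM, against 81.1 to 1658 CPM. miR-142-3p was at 225.8 and 399.9 CPM, against 512.5 to 2114 CPM. The part of these lists in the levels of the members was not tested.

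**Figure D4:**
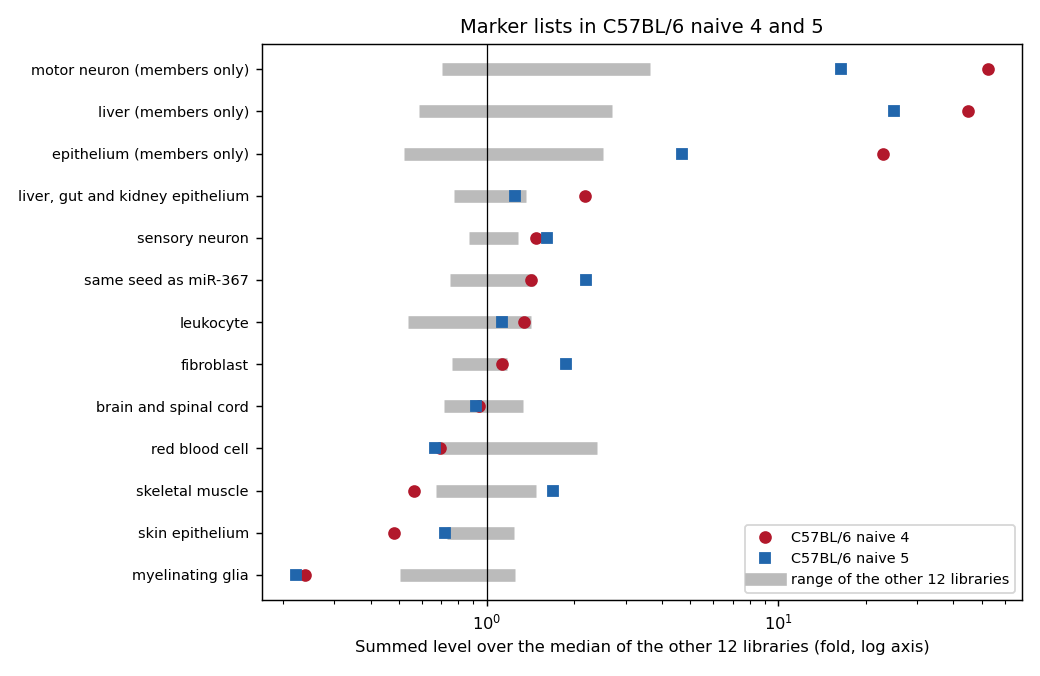
Summed level of each marker list in C57BL/6 naive 4 (circles) and C57BL/6 naive 5 (squares), divided by the median of the other 12 libraries (log axis), with the range of those 12 in grey. The 3 lists made of members lie to the right, the brain and spinal cord list lies inside the range of the other 12, and the myelinating glia list lies to the left at 8629 and 8046 CPM; lists with a library at 0 are left out.

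The members nearest to each other were miR-218-5p and miR-122-5p. After centring each miRNA on its median over the 14 libraries, their root mean square difference was 0.35 on the log2(CPM + 1) scale, and miR-218-5p differed from miR-367-3p by 0.50 and from miR-141-3p by 0.55. Outside the members, the 3 nearest to miR-218-5p were miR-494-5p at 0.45, miR-155-3p at 0.54 and miR-448-5p at 0.74. The same 3 were nearest to miR-122-5p (0.54, 0.67 and 0.73) and, in another order, to miR-141-3p (0.71, 0.41 and 0.62). All these values share the excess in C57BL/6 naive 4 and 5.

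miR-494-5p was at 855.0 and 363.6 CPM in C57BL/6 naive 4 and 5, against 4.56 to 44.8 CPM in the other 12. Its partner arm miR-494-3p was at 251.5 and 413.3 CPM, against 121.0 to 338.4 CPM. miR-448-5p, from an intron of the serotonin receptor gene Htr2c, was at 86.8 and 24.3 CPM, against 1.27 to 5.33 CPM. miR-155-3p was at 182.04 and 18.8 CPM, against 0.137 to 9.12 CPM. Partner arms differed in this: miR-494-3p was above the range in C57BL/6 naive 5 alone, while miR-155-5p was at 233.3 and 178.1 CPM, against 27.6 to 99.5 CPM, and miR-448-3p at 1.95 and 1.88 CPM, against 0 to 1.09 CPM, both above all others.

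The injury response and the strain difference were tested for the members only outside C57BL/6 naive, the group whose values chose them. Earlier results of these data were known when the members and these tests were chosen. A limma model was fitted over the 9 libraries outside C57BL/6 naive, on log2(CPM + 1), for the 612 miRNAs that reached 5 CPM in 3 or more of the 9. It kept 10 of the 12 members, and miR-218-2-3p and miR-200a-5p were too low. P-values were adjusted by Benjamini and Hochberg over all 612, with a threshold of 0.05.

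After injury in CAST/Ei, the 3 chromosome 4 epithelial miRNAs had lower means, and 1 of them passed the test. miR-429-3p had 15.3, 14.8 and 16.3 CPM in CAST/Ei injured libraries, against 37.7, 29.8 and 37.1 CPM in CAST/Ei naive ones. The groups did not overlap, and the means were 15.5 ± 0.773 and 34.9 ± 4.42 CPM (SD, n = 3 each). On the log2 scale it fell by 1.12 ± 0.23 (SE; limma, adjusted p = 0.0186). The call was lost when CAST/Ei injured 1 (adjusted p = 0.0943 with limma), CAST/Ei injured 2 (0.0986), CAST/Ei injured 3 (0.0912) or CAST/Ei naive 1 (0.0587) was left out, and when all 14 libraries shared the spread (0.746).

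Its cluster partners showed similar values without passing. miR-200b-3p had 14.2, 10.3 and 17.4 CPM in CAST/Ei injured, against 42.5, 43.7 and 29.9 CPM in CAST/Ei naive, a log2 fold change of -1.42 ± 0.37 (SE; limma, adjusted p = 0.0564). miR-200a-3p had 18.9, 14.3 and 22.1 CPM in CAST/Ei injured, against 53.6, 35.1 and 37.1 CPM in CAST/Ei naive, a log2 fold change of -1.14 ± 0.36 (SE; limma, adjusted p = 0.0998). For both, every injured library was below every naive one. Reads per library in these 6 libraries ran from 64 to 587 for miR-200b-3p and from 89 to 740 for miR-200a-3p.

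The chromosome 6 pair of the family did not pass either, and its 2 members had opposite signs. miR-200c-3p averaged 6.73 ± 1.69 CPM in CAST/Ei injured and 4.05 ± 1.38 CPM in CAST/Ei naive (SD, n = 3 each), with every injured library above every naive one, a log2 fold change of 0.63 ± 0.34 (SE; limma, adjusted p = 0.296). miR-141-3p averaged 8.79 ± 1.65 CPM in CAST/Ei injured and 12.04 ± 8.21 CPM in CAST/Ei naive, and the groups overlapped. Its log2 fold change was -0.19 ± 0.56 (SE; limma, adjusted p = 0.860). No test of the difference between the chromosome 4 and chromosome 6 pairs was run.

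Of the members, 1 of 10 passed in this comparison, and of all 612 miRNAs 27 did, or 4.41%. The 2 groups did not overlap for 4 of the 10, beside 26.6% of the 612. The median log2 fold change of the 10 was -0.63, and of all 612 it was -0.09. Of the 10, 9 were below 0, beside 56.7% of the 612. On plain CPM the median of all 612 was 0.16, and miR-141-3p and miR-205-5p were then above 0. miR-218-5p averaged 5439 ± 1040 CPM in CAST/Ei injured and 10957 ± 7263 CPM in CAST/Ei naive (SD, n = 3 each), a log2 fold change of -0.73 ± 0.59 (SE; limma, adjusted p = 0.477). miR-367-3p averaged 711.0 ± 271.0 CPM and 1586 ± 1311 CPM, at -0.79 ± 0.80 (SE; limma, adjusted p = 0.584). miR-122-5p averaged 15.9 ± 2.07 CPM and 26.2 ± 14.1 CPM, at -0.54 ± 0.47 (SE; limma, adjusted p = 0.532).

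The means of these 3 rest on 2 of the naive libraries. Without CAST/Ei naive 1 and 3 and C57BL/6 injured 1, the libraries of the fit highest in miR-218-5p, the log2 fold changes of miR-218-5p, miR-367-3p, miR-122-5p and miR-141-3p turned to 0.63, 0.77, 0.41 and 0.95, none past the threshold. Those of miR-429-3p, miR-200b-3p and miR-200a-3p stayed negative at -0.90, -1.61 and -0.92. That fit compares 3 injured libraries with 1 naive library and assumes that the lone one varies like the others. Under it miR-200b-3p passed, with a limma adjusted p of 0.0417, and miR-429-3p did not, at 0.0980.

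Between the strains in injured DRG, the same member passed. miR-429-3p had 15.3, 14.8 and 16.3 CPM in CAST/Ei injured, against 6.77, 4.62 and 6.92 CPM in C57BL/6 injured. The groups did not overlap, the means were 15.5 ± 0.773 and 6.10 ± 1.29 CPM (SD, n = 3 each), and the ratio of means was 2.54. On the log2 scale it was higher by 1.23 ± 0.23 (SE; limma, adjusted p = 0.00659). The call was lost when C57BL/6 injured 2 was left out (adjusted p = 0.0553 with limma) and when all 14 libraries shared the spread (0.672).

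Among the other 9 members tested, the lowest limma adjusted p between the strains was 0.508, for miR-200a-3p. It averaged 18.4 ± 3.92 CPM in CAST/Ei injured and 14.3 ± 8.96 CPM in C57BL/6 injured (SD, n = 3 each), and its log2 fold change was 0.48 ± 0.36 (SE). miR-200b-3p was at 0.46 ± 0.37 (SE). The mean of C57BL/6 injured rests on library 1, the one high in miR-218-5p. Without it the log2 fold changes were 0.93 for miR-200a-3p and 0.85 for miR-200b-3p. The share of members called was 1 of 10, beside 37 of 612 miRNAs, or 6.05%. The groups did not overlap for 1 of the 10, beside 36.3% of the 612.

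**Figure D5:**
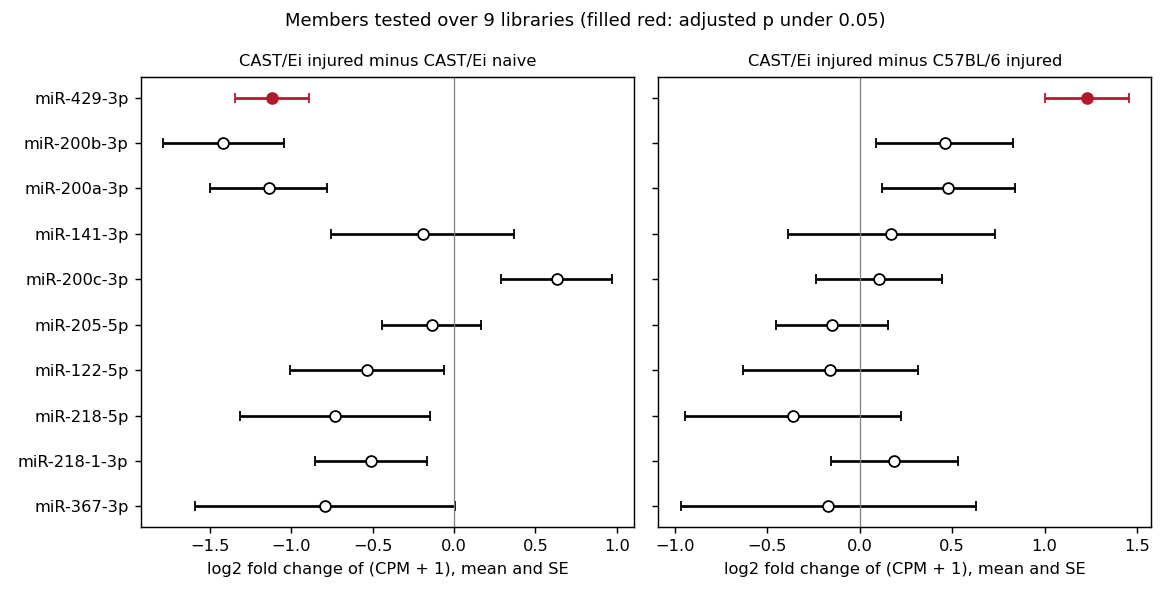
Log2 fold change of (CPM + 1) with its SE for the 10 members tested, on the left for CAST/Ei injured minus CAST/Ei naive and on the right for CAST/Ei injured minus C57BL/6 injured (n = 3 each). miR-429-3p, filled in red, is at -1.12 and 1.23 and is the one member with a limma adjusted p under 0.05 in either comparison.

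In naive DRG the chromosome 4 miRNAs had their highest levels outside C57BL/6 naive 4 in CAST/Ei, apart from miR-200a-3p and miR-200b-3p in C57BL/6 naive 5. miR-429-3p had 37.7, 29.8 and 37.1 CPM in CAST/Ei naive, against 4.80, 7.21, 8.36, 82.0 and 13.0 CPM in C57BL/6 naive libraries 1 to 5. miR-200b-3p had 42.5, 43.7 and 29.9 CPM in CAST/Ei naive, against 10.7, 5.35, 4.31, 372.4 and 58.1 CPM in C57BL/6 naive. miR-200a-3p had 53.6, 35.1 and 37.1 CPM in CAST/Ei naive, against 5.75, 11.7, 8.61, 575.9 and 114.6 CPM in C57BL/6 naive. All 3 CAST/Ei naive libraries were thus above C57BL/6 naive 1, 2 and 3 for each of the 3 miRNAs, CAST/Ei naive 2 included, which was the lowest of all libraries in miR-218-5p.

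The strain difference in naive DRG depended on C57BL/6 naive 4 and 5 in size or sign. The mean difference of log2(CPM + 1), CAST/Ei minus C57BL/6, was 1.36 for miR-429-3p with all libraries and 2.22 without the 2. It was 0.68 and 2.42 for miR-200b-3p, and 0.26 and 2.17 for miR-200a-3p. For miR-218-5p it was -1.09 with all libraries and 0.87 without the 2, for miR-367-3p -0.76 and 1.70, for miR-122-5p -1.20 and 0.89, and for miR-141-3p -0.93 and 1.20. The median over 638 miRNAs was 0.12 both ways. The chromosome 4 miRNAs thus kept their sign, and the other 4 changed it.

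The injury difference in C57BL/6 turned on the same libraries. The mean difference of log2(CPM + 1), C57BL/6 injured minus naive, was -1.46 for miR-218-5p with all 5 naive libraries and 0.50 without C57BL/6 naive 4 and 5. It was -1.38 and 1.08 for miR-367-3p, -1.58 and 0.51 for miR-122-5p, and -1.29 and 0.83 for miR-141-3p. For miR-200a-3p it was -1.36 and 0.55, and for miR-200b-3p -1.19 and 0.54. miR-429-3p was at -0.98 and -0.12, miR-200c-3p at -0.69 and -0.02, and miR-205-5p at -0.37 and -0.19. The median over the 638 miRNAs was 0.12 and 0.14. No test was made here, since the naive values chose the members.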

How the data were processed

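Libraries were made with the Ion Total RNA-Seq kit from miRVana RNA, per the labels' protocols, and aligned with Bowtie2, per the submitters' processing notes. The sources used here do not give the Bowtie2 version, genome build, annotation or counting. The deposited signal of each of 1123 miRNAs is CPM on TMM-scaled library sizes: the authors' values total 867581 to 1311857 per library, TMM factors (edgeR 4.0.16) match the reciprocal totals within 9.1e-06, and 100% of values are whole reads within 1e-06. The recovery is least certain in C57BL/6 injured 1. One library's floor is 3 reads. Limits and intervals cover counting error only.

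Tests used limma-trend on log2(CPM + 1) (limma 3.58.1, R 4.3.3), which was checked on simulated data, without a replicate block. C57BL/6 naive was kept out of the fit, since its values chose the members. DESeq2 1.42.0 and edgeR on recovered reads, other scalings, pseudocounts, filters, library sets and left-out libraries were alternatives. The members, marker lists and tests were chosen with earlier results of these data known. Other miRNAs were named as the 3 nearest to miR-218-5p, miR-122-5p and miR-141-3p, and as the 10 with the largest ratio of the lower of C57BL/6 naive 4 and 5 to the highest other library.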

Additional observations from a re-analysis of the deposited data

Results flagged for a closer look

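For 6 of the 12 members, 1 library of the 5 C57BL/6 naive ones lay far from the other 4. The gap to the nearest library, as a share of the whole range of the group, was 0.894 for miR-429-3p, 0.8538 for miR-200b-3p, 0.8125 for miR-141-3p, 0.8091 for miR-200a-3p and 0.7175 for miR-367-3p. In these 5 cases the library was C57BL/6 naive 4. For miR-200a-5p the share was 1, because C57BL/6 naive 2 had 2 reads and the other 4 libraries had 0, which is within counting error. Chance flags about 1 group in 20, but the members were chosen on these libraries, so their count is not read against that share. For miR-218-5p and miR-122-5p, where C57BL/6 naive 4 and 5 were both high, the share did not pass.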

How the results depend on the processing

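Each comparison was refitted under 23 alternatives. miR-429-3p stayed negative for injury in CAST/Ei in all 23 and lost its call in 7 (adjusted p 0.000132 to 0.746), among them no filter on low values (0.0514). It stayed positive between the strains in all 23 and lost its call in 2 (5.0e-07 to 0.672). For injury in CAST/Ei, miR-200b-3p passed in 8 of 23 and miR-200a-3p in 3, with DESeq2 among them (0.00474 and 0.0392). miR-200a-3p also passed in 1 of 23 between the strains. Against 27 miRNAs called for injury, 15 were called with no filter, 46 with plain CPM, 41 with totals without the 3 most abundant miRNAs, 7 over all 14 libraries, 17 over 12 libraries, 17 from the 2 groups alone, 55 with DESeq2, 43 without the 3 libraries highest in miR-218-5p (added after seeing the data, as was edgeR without C57BL/6 injured 1), and 7 to 53 with 1 library left out. The calls were 17 higher and 10 lower, and with plain CPM 42 and 4. Against 37 between the strains, 64 were called with no filter, 21 over all 14 libraries, 99 from the 2 groups alone, 56 with DESeq2, 73 without the 3 libraries, 15 with edgeR without C57BL/6 injured 1, and 11 to 75 with 1 library left out. The cause was not tested. Libraries that share a number did not deviate together (correlations -0.171 to 0.160), and a replicate block gave 20 and 47 calls and changed no member's call.

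Signs turned only for members that passed in neither comparison. For injury in CAST/Ei, miR-141-3p turned to 0.052 with plain CPM, 0.032 without the 3 most abundant, 0.95 without the 3 libraries, and ran from -0.77 to 0.28 with 1 library left out. miR-205-5p turned to 0.087 and 0.066 under the first 2. Without the 3 libraries miR-122-5p turned to 0.41, miR-218-5p to 0.63 and miR-367-3p to 0.77. Between the strains the same 3 turned to 0.36, 0.26 and 0.76, and with edgeR without C57BL/6 injured 1 to 0.40, 0.29 and 0.78. miR-141-3p turned to -0.016 with edgeR and -0.0062 with DESeq2. With 1 library left out, the strain difference ran from -0.14 to 0.77 for miR-141-3p, -0.86 to 0.76 for miR-367-3p, -0.74 to 0.26 for miR-218-5p, -0.45 to 0.36 for miR-122-5p, -0.21 to 0.27 for miR-200c-3p, -0.11 to 0.37 for miR-218-1-3p and -0.45 to 0.11 for miR-205-5p. Of 33 folds described without a test, all but that of miR-205-5p under plain CPM (0.37 on the log2 scale) moved by less than the SD over the other 12 libraries. That SD spans the 4 groups. The 24 mean differences, some of which changed sign, all moved by less than the SD of the 5 C57BL/6 naive libraries. C57BL/6 naive 4 and 5, the libraries left out there, widen this SD, so nothing is read from it. miR-218-1-3p was too low to enter 4 and 5 of the alternatives. Depth limits miR-200c-3p and miR-205-5p, with 29 to 193 reads per library.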

Other observations

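Beside the members, 10 other miRNAs had the largest ratios of the lower of C57BL/6 naive 4 and 5 to the highest of the other 12 libraries, and their levels are given with no test. miR-222-3p, known to rise in injured neurons, was at 5619 and 1383 CPM in C57BL/6 naive 4 and 5, against 126.3 to 413.4 CPM in the other 12, while its partner miR-222-5p was at 4.13 and 2.26 CPM, against 1.27 to 5.66 CPM. miR-6367 was at 84.1 and 140.9 CPM, against 2.60 to 21.7 CPM. let-7d-3p was at 1635 and 1325 CPM, against 157.3 to 468.6 CPM, with let-7d-5p at 10340 and 4036 CPM, against 7543 to 12970 CPM. let-7b-3p was at 432.7 and 745.3 CPM, against 89.3 to 181.2 CPM. miR-486-5p, a red blood cell miRNA, was at 263.7 and 205.05 CPM, against 16.7 to 73.9 CPM, and its partner miR-486-3p stood at 582.6 and 465.8 CPM, against 69.9 to 171.9 CPM. miR-3107-5p and miR-3107-3p, a near copy of miR-486 and therefore uncertain, were at 264.5 and 215.8 CPM, against 18.7 to 71.4 CPM, and at 537.1 and 464.1 CPM, against 69.7 to 166.5 CPM. The other 2 of the 10, miR-494-5p and miR-448-5p, are described with the members.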
